A study of Mus musculus with 12 samples.

Results

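The genes described here are 10 members of the machinery by which spermatogonial stem cells receive GDNF and hold the undifferentiated state: the receptor genes *Gfra1* and *Ret*, the GDNF-responsive transcription factor genes *Etv5* and *Bcl6b*, the T-box gene *Eomes*, the surface marker gene *Tspan8*, the spermatogonial transcription factor genes *Zbtb16* (PLZF) and *Sall4*, and the pluripotency-associated genes *Pou5f1* (OCT4) and *Utf1*. They were chosen by name, with earlier results of these data known. Each matched 1 of the 55385 gene rows in a table of TPM, a share of each library corrected for transcript length. The table covers 12 RNA-seq libraries of FACS-purified mouse spermatogonia in 6 groups of 2 independent replicates, each made from pooled cells. Undifferentiated spermatogonia (Aundiff) were sorted as E-Cadherin+ CD9high KIT- and differentiating spermatogonia (Adiff) as E-Cadherin+ CD9medium KIT+.

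WT Aundiff and WT Adiff came from C57BL/6 mice of 2 to 3 months. The other 8 libraries are Aundiff of PRC1 mice of the strain C57BL/6 X FVB/NJ at 2 months, in which all animals, controls included, lacked *Ring1* and carried the Cre transgene Ddx4-Cre, which is active in germ cells. PRC1ctrl is Ring1-/-; Rnf2 F/+; Ddx4-Cre and PRC1cKO is Ring1-/-; Rnf2 F/-; Ddx4-Cre; RING1 and RNF2 are the paired E3 ligases of Polycomb repressive complex 1. In 4 of these libraries the mice were untreated, and in the other 4 they had received daily injections of Win18446, an inhibitor of retinoic acid synthesis, from 1 month of age. The 8 WT and Win18446 libraries were prepared from 100000 to 150000 cells with a stranded TruSeq kit, and the 4 untreated PRC1 libraries from 7000 cells with a Smart-Seq2 protocol, so in the PRC1 mice the treatment and the library kit cannot be told apart.

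GDNF, secreted by somatic cells of the testis, binds the co-receptor GFRα1 on the stem cell, and the complex activates the receptor tyrosine kinase RET. RET signals through Src family kinases, PI3K/AKT and MAPK, and these pathways induce transcription factors such as ETV5 and BCL6B that are needed for self-renewal. PLZF and SALL4 act alongside this input in the same cells, whereas retinoic acid drives them toward KIT expression and differentiation.

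All 10 members are protein-coding and their positions are given on GRCm38. *Gfra1* lies at chr19:58235604-58455909 on the minus strand, *Ret* at chr6:118151745-118197718 (minus), *Etv5* at chr16:22381309-22439719 (minus), *Bcl6b* at chr11:70224128-70229798 (minus) and *Eomes* at chr9:118478212-118486132 (plus). *Tspan8* lies at chr10:115816832-115849893 on the plus strand, *Zbtb16* at chr9:48654297-48836222 (minus), *Sall4* at chr2:168748332-168767943 (minus), *Pou5f1* at chr17:35506018-35510772 (plus) and *Utf1* at chr7:139943789-139945112 (plus). No member shared exonic bases with a gene on its own strand. On the opposite strand, exons of the predicted genes *Gm19553*, *Gm14261* and *Gm16277* covered 14.1% of the exonic bases of *Pou5f1*, 9.50% of those of *Sall4* and 7.60% of those of *Gfra1*. The Smart-Seq2 protocol does not mark strand, and reads of such partners cannot be told apart there. Of the 31-base words in the transcripts of *Etv5*, 30.3% also occur in the predicted gene *Gm4798*, which was listed at 0 in all 12 libraries, so its reads and those of *Etv5* are uncertain in how they were split. For *Pou5f1* the share was 4.79%, over 4 genes, and for the other 8 members it was under 0.5%.

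The RefSeq promoter table (GRCm38.p6, 250 bases before to 50 after the annotated start) matched 6 of the 10 members, the others being *Ret*, *Bcl6b*, *Zbtb16* and *Sall4*. The 3 promoters shown are those of *Gfra1* and *Etv5*, whose levels followed each other most closely of all member pairs over the 8 TruSeq libraries, and of *Pou5f1*, which differed most between the labels after Win18446. They are written 5′ to 3′ on the strand of the gene, with capitals marking the ETS core CCGGAA and the GC box GGGCGG, both searched on both strands. They lie at chr19:58455349-58455648 (minus), chr16:22439521-22439820 (minus) and chr17:35505782-35506081 (plus).
Gfra1: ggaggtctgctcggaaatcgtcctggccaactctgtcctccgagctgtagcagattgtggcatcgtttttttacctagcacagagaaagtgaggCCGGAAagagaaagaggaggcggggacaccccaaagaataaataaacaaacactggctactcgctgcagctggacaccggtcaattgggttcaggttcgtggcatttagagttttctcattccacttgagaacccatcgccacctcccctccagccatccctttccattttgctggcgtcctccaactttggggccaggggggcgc
Etv5: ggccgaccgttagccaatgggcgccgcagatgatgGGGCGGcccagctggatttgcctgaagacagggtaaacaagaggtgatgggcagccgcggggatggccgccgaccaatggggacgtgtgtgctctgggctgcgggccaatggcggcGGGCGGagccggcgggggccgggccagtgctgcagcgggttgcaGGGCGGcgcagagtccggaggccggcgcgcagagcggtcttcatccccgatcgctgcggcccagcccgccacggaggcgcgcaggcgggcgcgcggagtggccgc
Pou5f1: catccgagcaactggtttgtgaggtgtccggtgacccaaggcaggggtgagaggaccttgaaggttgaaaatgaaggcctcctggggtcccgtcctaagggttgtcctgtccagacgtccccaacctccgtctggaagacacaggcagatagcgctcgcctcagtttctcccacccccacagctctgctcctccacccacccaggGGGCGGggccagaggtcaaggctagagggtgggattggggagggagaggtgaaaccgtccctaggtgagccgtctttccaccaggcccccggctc
The *Gfra1* promoter held 1 ETS core, starting at base 95 of the window, a motif found in 14.9% of all 32851 promoters of this length. The *Etv5* promoter held no ETS core and 3 GC boxes, and the *Pou5f1* promoter 1 GC box. A GC box occurs in 35.7% of all promoters. In base composition *Etv5* stood apart, with 37 CpG dinucleotides in 300 bases against 12 in *Gfra1* and 11 in *Pou5f1*, where the median promoter has 7. A match describes these letters only.

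In TPM every library has the same total, and read numbers are not kept, so depth is unknown. At least 1 TPM was reached by 14796 to 16599 genes in TruSeq libraries and by 12422 to 13986 in Smart-Seq2 libraries, and mitochondrial transcripts took 4.28% to 6.69% and 12.5% to 16.7%. Germ cell markers (*Ddx4*, *Dazl*, *Tex101* and *Mael*) summed to 896 to 1778 TPM in every library. *Ring1* was at 0.03 to 0.25 TPM in the 8 PRC1 libraries and at 8.61 to 19.9 TPM in the 4 WT libraries. *Rnf2* was not lower under the PRC1cKO label: it stood at 28.3 and 47.6 TPM in the libraries labelled PRC1ctrl and at 56.7 and 67.5 TPM in those labelled PRC1cKO without treatment, and at 78.1 and 67.2 against 86.2 and 93.1 TPM after Win18446. A TPM of the whole gene does not separate the floxed exons, so this value does not check the deletion, and the genotypes are given as labels.

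The receptor genes were among the more abundant transcripts of WT Aundiff. *Gfra1*, the gene of the GPI-anchored co-receptor, was at 70.5 and 68.1 TPM in WT Aundiff and at 3.55 and 4.06 TPM in WT Adiff. In PRC1ctrl and PRC1cKO it was at 7.18 and 15.0 and at 8.83 and 23.6 TPM without treatment, and at 14.7 and 14.7 and at 15.7 and 16.1 TPM after Win18446. WT Aundiff was the highest group and WT Adiff the lowest, both with no overlap with the next, and the 2 untreated groups overlapped widely.

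*Ret*, which encodes the signalling kinase of the complex, was at 96.7 and 124 TPM in WT Aundiff and at 5.73 and 5.60 TPM in WT Adiff. After Win18446 it was at 82.7 and 97.8 TPM under PRC1ctrl and at 83.3 and 88.8 TPM under PRC1cKO, ranges that overlapped each other and, for PRC1ctrl, WT Aundiff. Without treatment it was at 2.33 and 4.26 and at 2.26 and 6.24 TPM, the latter overlapping WT Adiff. The levels of *Ret* thus fell into an upper class of 3 TruSeq Aundiff groups, and a lower class of WT Adiff and the Smart-Seq2 libraries.

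Among the GDNF-responsive factors, *Etv5*, an ETS-family gene, was at 57.3 and 58.7 TPM in WT Aundiff against 2.62 and 2.77 TPM in WT Adiff. It was at 4.29 and 6.28 and at 5.43 and 9.38 TPM in untreated PRC1ctrl and PRC1cKO, and at 16.0 and 15.3 and at 12.6 and 14.9 TPM after Win18446. Its order of groups was WT Aundiff, PRC1ctrl and PRC1cKO after Win18446, PRC1cKO and PRC1ctrl without treatment and WT Adiff, and the untreated pair was the one pair of neighbours that overlapped.

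*Bcl6b*, a BTB zinc finger repressor gene, was at 25.9 and 29.5 TPM in WT Aundiff and at 5.64 and 5.55 TPM in WT Adiff. It was at 14.1 and 14.7 and at 11.4 and 11.9 TPM after Win18446, and at 2.68 and 2.11 and at 2.65 and 4.89 TPM without treatment. *Eomes*, a T-box gene that marks a subset of stem cells, was the lowest member in WT Aundiff, at 3.75 and 4.05 TPM. In the other 10 libraries it lay between 0.49 and 1.12 TPM, around the 1 TPM of the filter on low values.

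*Tspan8*, a tetraspanin gene whose protein marks stem cells, was at 22.0 and 16.1 TPM in WT Aundiff and at 0.80 and 0.08 TPM in WT Adiff. It was highest in the Smart-Seq2 libraries, at 47.5 and 44.0 TPM in PRC1ctrl and 36.2 and 24.1 TPM in PRC1cKO, and was at 13.1 and 11.4 and at 8.76 and 8.39 TPM after Win18446. No 2 neighbouring groups of *Tspan8* overlapped.

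*Zbtb16*, which encodes the zinc finger repressor PLZF, was at 131 and 167 TPM in WT Aundiff and still at 32.5 and 39.1 TPM in WT Adiff. After Win18446 it was at 176 and 216 TPM under PRC1ctrl, the highest group, and at 99.1 and 129 TPM under PRC1cKO. In the untreated libraries it was at 4.93 and 12.5 and at 5.08 and 14.2 TPM, and these overlapped. *Sall4*, a zinc finger gene shared with embryonic stem cells, was at 135 and 171 TPM in WT Aundiff and at 99.7 and 124 TPM in WT Adiff. It reached 517 and 704 TPM in untreated PRC1ctrl and 266 and 314 TPM in untreated PRC1cKO, and was at 124 and 155 and at 91.1 and 117 TPM after Win18446. Among the 4 TruSeq groups all neighbours of *Sall4* overlapped.

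*Pou5f1*, the POU factor gene of pluripotent cells, was at 57.0 and 62.3 TPM in WT Aundiff and at 8.89 and 14.9 TPM in WT Adiff. After Win18446 it was at 58.0 and 63.5 TPM under PRC1ctrl, overlapping WT Aundiff, and at 34.4 and 34.0 TPM under PRC1cKO. Without treatment it was at 1.66 and 6.19 and at 2.66 and 3.06 TPM. *Utf1*, a chromatin-associated gene of undifferentiated cells, was at 12.4 and 20.0 TPM in WT Aundiff and at 7.61 and 10.3 TPM in WT Adiff. It was highest after Win18446, at 32.4 and 50.5 TPM under PRC1ctrl and 34.4 and 37.6 TPM under PRC1cKO, which overlapped, and was at 0.65 and 3.23 and at 1.2 and 7.18 TPM without treatment.

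**Figure D1:**
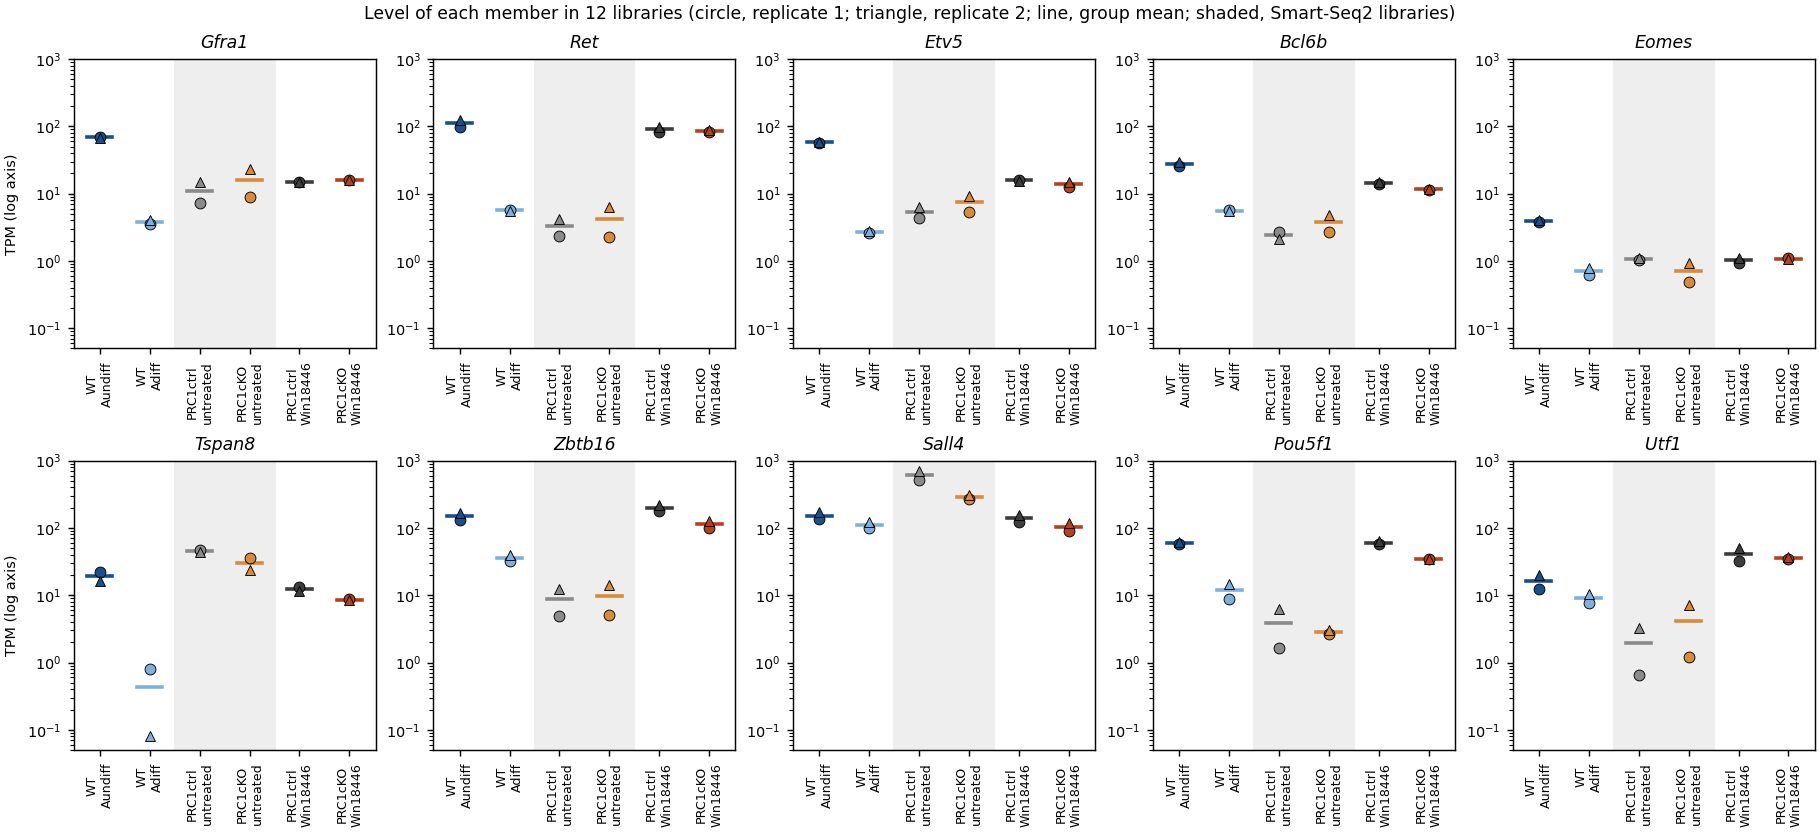
TPM of each member (log axis, 1 panel per gene) in the 12 libraries by group; circles are replicate 1, triangles replicate 2, lines the group means, and the shaded bands hold the Smart-Seq2 libraries. WT Aundiff lies above WT Adiff in all 10 panels, and Ret, Zbtb16, Pou5f1 and Utf1 are lower in the shaded bands than after Win18446, whereas Tspan8 and Sall4 are higher there.

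The question of the WT comparison is which of these genes change as Aundiff become Adiff. All 10 members were lower in both WT Adiff libraries than in both WT Aundiff libraries, against 28.7% of all 15470 genes tested, and 8 of the 10 passed the test, all lower. The members were chosen with earlier results of these data known, so the shares of all genes describe the list and do not test it. A gene is called here when limma on log2(TPM + 1) gives it a Benjamini-Hochberg adjusted p under 0.05 together with a log2 fold change beyond 1 in size. By this rule 9.24% of all genes were called lower and 11.1% higher, with a median log2 fold change of 0.15 over all genes. Median-of-ratios scaling moved that median to -0.0019 and the calls from 1724 higher and 1430 lower to 1168 and 1750; all 8 called members stayed called and lower under it. In these pooled cells, fewer cells of a type and less RNA per cell cannot be told apart.

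The receptor pair fell together. Mean *Gfra1* TPM was 18.2-fold and mean *Ret* TPM 19.5-fold higher in Aundiff, with log2 fold changes of -3.87 ± 0.169 (SE) and -4.05 ± 0.180, both at an adjusted p of 0.000221. *Etv5* fell as steeply, by 4.0 ± 0.173 on the log2 scale (adjusted p = 0.000221, ratio of means 21.5). *Bcl6b* fell by 2.12 ± 0.182 (adjusted p = 0.00123) and *Eomes* by 1.52 ± 0.258 (adjusted p = 0.00685). The pair of receptor genes and *Etv5* thus lost about 4 log2 units, and *Bcl6b* and *Eomes* less. *Eomes* and *Tspan8* were under 1 TPM in both WT Adiff libraries, so they were tested only through WT Aundiff and could only be called lower.

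*Tspan8* had the highest ratio of means of all members, 43.3, and a log2 fold change of -3.83 ± 0.328 (adjusted p = 0.00123), which the added value of 1 makes smaller than the ratio, since Adiff was below 1 TPM. *Pou5f1* fell by 2.27 ± 0.246 (adjusted p = 0.00200) and *Zbtb16* by 2.02 ± 0.174 (adjusted p = 0.00123). Mean TPM of these 2 transcription factor genes was 5.01-fold and 4.17-fold higher in Aundiff, so that Adiff kept more of them than of the receptor genes. *Sall4* and *Utf1* did not pass, at -0.45 ± 0.174 (adjusted p = 0.0882) and -0.77 ± 0.277 (adjusted p = 0.0712), although neither overlapped between the groups.

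Without WT Aundiff replicate 1, 7 members were called, *Utf1* among them at -1.09 (adjusted p = 0.0491, range over all its alternatives 0.0156 to 0.388), and without WT Aundiff replicate 2, 6 were called; in both fits *Eomes* and *Tspan8* fell below the filter on low values and were not tested. Spermatid markers, which spermatogonia should lack, summed over 6 genes to 763 and 840 TPM in WT Aundiff and 521 and 706 TPM in WT Adiff, with 5 of the 6 at 1 TPM or more in both libraries of each group. Spermatocyte markers summed to 151 and 133 against 213 and 189 TPM with 1 higher, and Sertoli cell markers to 33.3 and 35.1 against 21.5 and 21.4 TPM with 1 lower. The part of these cells in the member differences was not tested.

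**Figure D2:**
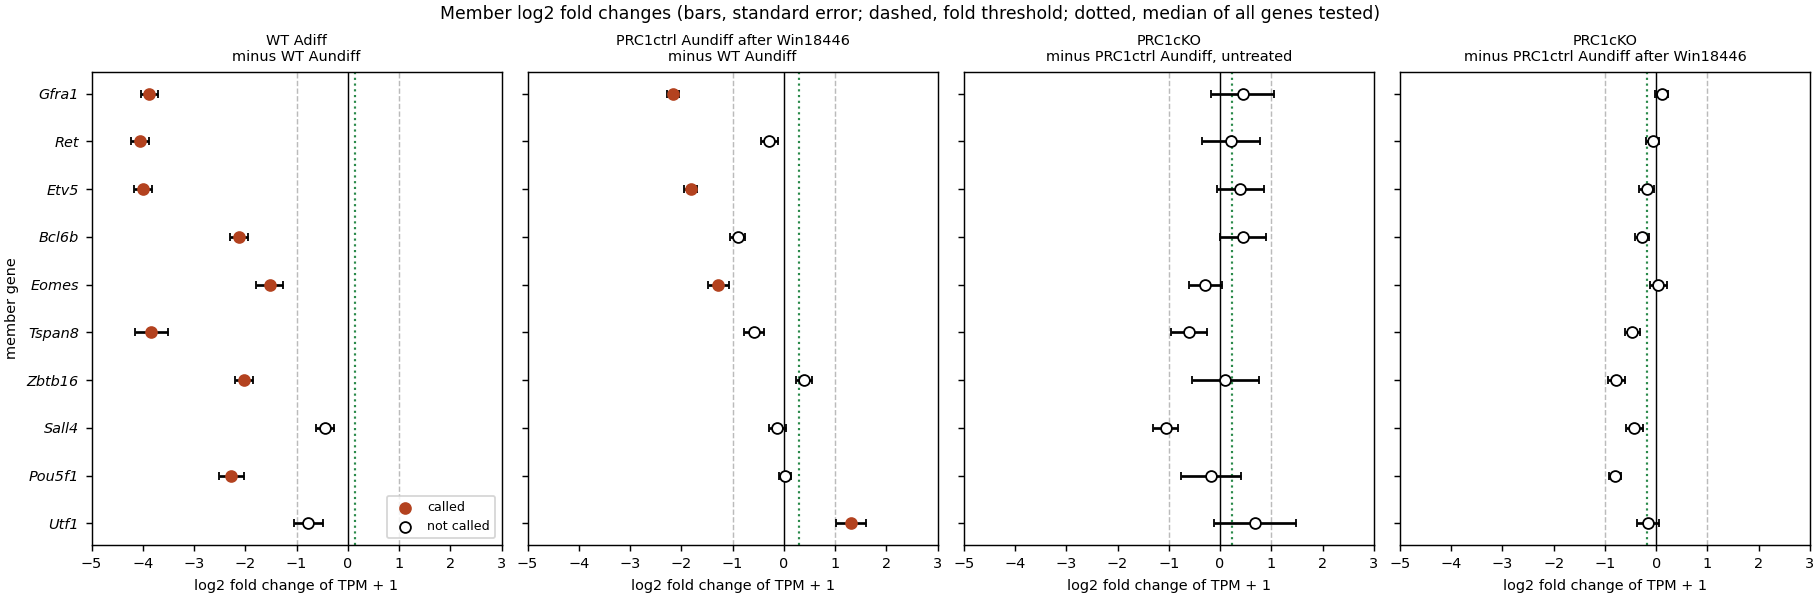
Log2 fold changes of TPM + 1 of the 10 members (points, bars are the standard error from limma) in 4 comparisons; filled points were called, dashed lines mark the fold threshold, and the dotted line is the median of all genes tested. In WT all 10 points lie left of 0 and 8 are filled, after Win18446 against WT Aundiff 4 are filled, with Utf1 to the right, and in both comparisons of the labels none is filled.

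The genes around the receptor did not fall as a group. Of 20 genes for GDNF-family ligands, co-receptors and RET adaptors, 14 were tested in the WT comparison, 2 rose and 1 fell, with a median of 0.42. *Nrtn*, the ligand neurturin, rose by 2.58 ± 0.565 on the log2 scale (6.32 and 9.26 TPM in Aundiff, 28.8 and 89.1 TPM in Adiff, adjusted p = 0.0255). *Artn*, the ligand artemin, rose by 1.09 ± 0.280 (0 and 0.03 against 1.15 and 1.18 TPM, adjusted p = 0.0254). *Artn* passed the filter on low values only through Adiff, so only a rise could be called. With a pseudocount of 0.1 it was not called (adjusted p = 0.051). Both genes lost the call without either WT Aundiff library, at 2.34 and 2.82 for *Nrtn* and 1.07 and 1.11 for *Artn*. *Fyn*, a Src family kinase gene, fell by 1.68 ± 0.147 (74.1 and 84.7 against 23.2 and 24.8 TPM, adjusted p = 0.00124). *Gdnf* itself stayed at or below 0.67 TPM in every library and *Pspn* at or below 0.5 TPM, and *Gfral* was listed at 0 throughout.

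Of 18 further GDNF-responsive and stem cell factor genes, all were tested, 12 fell and none rose, with a median of -1.32. Of these, *Nanos2*, *T*, *Egr3*, *Spry4*, *Pax7* and *Pdx1* were under 1 TPM in both WT Adiff libraries. They passed the filter on low values only through WT Aundiff, so a rise could not have been called for them. With either WT Aundiff library left out they were not tested, and the list had fewer calls. *Dusp6*, the ERK phosphatase gene and a common readout of this pathway, fell by 4.44 ± 0.20 (56.2 and 61.9 against 1.5 and 2.07 TPM, adjusted p = 0.000221). *Nanos2*, an RNA-binding protein gene of stem cells, fell by 3.54 ± 0.250 (10.8 and 11.7 against 0 and 0.10 TPM, adjusted p = 0.000866). *Foxc2* and *Egr2*, transcription factor genes, fell by 3.44 ± 0.260 and 3.19 ± 0.194. On log2(TPM + 1) the change of *Dusp6* was larger in size than that of any member. The added 1 makes the fall of *Tspan8* smaller, and the value of *Tspan8* reached -5.55 over its alternatives.

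Of 18 progenitor and undifferentiated-state genes, 9 fell and 2 rose (median -0.96), led by the fall of *Ddit4* (-4.11 ± 0.176), *Nanos3* (-4.06 ± 0.161), *Upp1* (-3.47 ± 0.139) and *Neurog3* (-2.37 ± 0.193). This list holds *Cd9* (168 and 174 against 72.5 and 71.5 TPM), on whose protein level the 2 groups were sorted apart. It also holds *Cdh1*, the gene of E-Cadherin, required in both sorts. *Thy1*, of the same list, was tested only through WT Aundiff, being under 1 TPM in both WT Adiff libraries. In the pluripotency network 11 of 15 genes were tested, 5 fell and 1 rose (median -0.92): *Tcl1* (-4.18 ± 0.175), *Dppa4* (-2.12 ± 0.185) and *Tfap2c* (-1.41 ± 0.224) fell, and *Klf5* rose by 1.65 ± 0.236. *Tdgf1*, of the same list, did not exceed 0.17 TPM.

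The closest paralogs of the members were mixed, with 11 of 18 tested, 4 lower and 1 higher (median -0.09). *Bcl6*, the paralog of *Bcl6b*, fell by 2.83 ± 0.234, *Etv4*, that of *Etv5*, by 2.57 ± 0.183, and *Sall1* and *Sall3* by 1.92 ± 0.236 and 1.42 ± 0.267, with adjusted p of 0.000866 to 0.00943. *Sall3* was under 1 TPM in both WT Adiff libraries and was tested only through WT Aundiff. *Tbr1*, *Tspan1* and *Pou5f2*, paralogs of *Eomes*, *Tspan8* and *Pou5f1*, were at or below 0.71 TPM in every library. All 10 differentiation genes rose, led by *Kit* (5.01 ± 0.139), on whose protein the cells were sorted, *Dmrtb1* (4.33 ± 0.192), *Stra8* (3.38 ± 0.154) and *Tcea3* (3.02 ± 0.280).

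The receptor balance was alike in WT Aundiff and WT Adiff. Against these it was higher in the Win18446 libraries of the PRC1 mice and lower in the untreated ones. Within a library, *Ret* TPM was 1.37 and 1.83 times *Gfra1* TPM in WT Aundiff and 1.61 and 1.38 times in WT Adiff, so that these ranges overlapped although both genes fell steeply. After Win18446 the ratio was 5.63 and 6.65 under PRC1ctrl and 5.31 and 5.51 under PRC1cKO. In the Smart-Seq2 libraries it was 0.32 and 0.28 and 0.26 and 0.26. Treatment and kit cannot be told apart within the PRC1 mice, and strain, *Ring1* deletion, the Cre transgene and age differ from WT as well. The ratio of *Etv5* to *Gfra1* varied less, from 0.40 to 1.09 over all 12 libraries, and was above 1 only in the 2 PRC1ctrl libraries after Win18446.

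**Figure D3:**
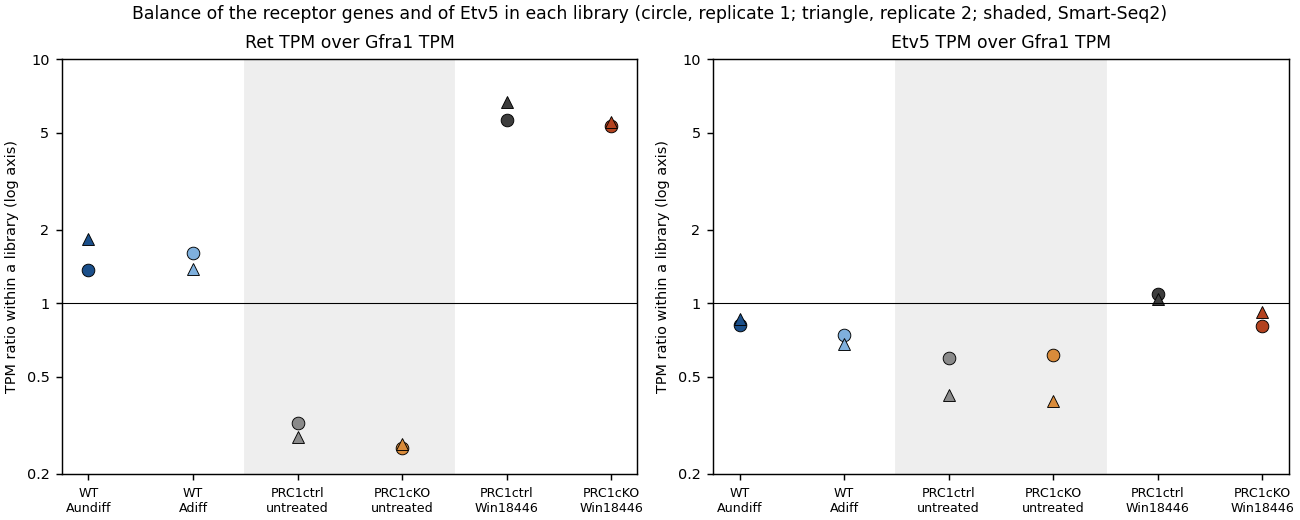
Ratio of Ret to Gfra1 TPM (left) and of Etv5 to Gfra1 TPM (right) within each library on log axes; circles are replicate 1, triangles replicate 2, and shaded bands hold the Smart-Seq2 libraries. The Ret to Gfra1 ratio is 5.31 to 6.65 in the 4 Win18446 libraries, 1.37 to 1.83 in the 4 WT libraries and 0.26 to 0.32 in the shaded bands.

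PRC1ctrl Aundiff after Win18446 were next set against WT Aundiff, the untreated Aundiff made with the same kit. *Gfra1*, *Etv5* and *Eomes* were lower and *Utf1* was higher, whereas the other members, *Ret* among them, were not called. Treatment, *Ring1* deletion, the Cre transgene, strain and age differ together here and cannot be told apart, and the WT Aundiff libraries are the same as in the WT comparison.

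*Gfra1* fell by 2.16 ± 0.122 on the log2 scale (adjusted p = 0.00102), *Etv5* by 1.82 ± 0.124 (adjusted p = 0.00126) and *Eomes* by 1.3 ± 0.208 (adjusted p = 0.00664), 3 of 10 members where 3.17% of 16602 genes were called lower. These are a receptor gene and 2 transcription factor genes, and a response to GDNF was not tested. *Utf1* rose by 1.3 ± 0.289 (adjusted p = 0.0160), where 16.4% of genes were called higher and the median of all genes was 0.30. Under median-of-ratios scaling that median was 0.03, and the calls went from 2727 higher and 527 lower to 1759 and 866, and under quantile normalization to 1362 and 1019; *Gfra1*, *Etv5* and *Eomes* stayed called under both. The *Utf1* call was lost without WT Aundiff replicate 1 (0.98, adjusted p = 0.0529), without PRC1ctrl Win18446 replicate 2 (0.99), under quantile normalization (0.95), without the low-value filter (adjusted p = 0.0722) and in a fit over all libraries (adjusted p = 0.150), with adjusted p from 0.000142 to 0.150 over its alternatives.

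*Bcl6b*, at -0.90 ± 0.144 (adjusted p = 0.00642), missed the fold threshold and was called under median-of-ratios scaling (-1.19) and quantile normalization (-1.29). *Tspan8* was at -0.59 ± 0.194 (adjusted p = 0.0544), and at -1.01 under quantile normalization, where it was called. *Ret* was at -0.28 ± 0.160, *Sall4* at -0.13 ± 0.165, *Pou5f1* at 0.03 ± 0.120 and *Zbtb16* at 0.39 ± 0.162, none of which passed (adjusted p 0.0990 to 0.881), and *Pou5f1* turned to -0.28 and -0.18 under the 2 other scalings. Over its alternatives *Ret* reached -0.59, with 0.0243 as its lowest adjusted p from limma, and stayed below the fold threshold. *Sall4* ran from -0.44 to 0.04 over its alternatives. Both libraries of PRC1ctrl lay below both of WT Aundiff for *Gfra1*, *Etv5*, *Bcl6b*, *Eomes* and *Tspan8*, against 19.6% of all genes.

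The wider stem cell factor list was also lower, with 9 of 18 genes lower, none higher and a median of -1.07. Fewer were called with any 1 library left out. *Egr3*, *Pdx1* and *Shisa6* were under 1 TPM in both PRC1ctrl libraries after Win18446 and so were tested only through WT Aundiff. *Foxc2* fell by 1.77 ± 0.230 (24.5 and 22.3 against 4.82 and 7.80 TPM), *Dusp6* by 1.76 ± 0.127 (56.2 and 61.9 against 16.6 and 16.8 TPM), *Egr2* by 1.64 ± 0.147 and *Shisa6* by 1.43 ± 0.440, with adjusted p of 0.00141 to 0.0433. *Shisa6* lost the call without either PRC1ctrl Win18446 library (adjusted p 0.0502 and 0.0677). Among the paralogs *Etv4* fell by 1.72 ± 0.167 and *Pou2f1* rose by 1.17 ± 0.179.

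Of the ligand and adaptor genes, *Sdc3*, a syndecan gene, rose by 1.22 ± 0.253 and the other 13 tested did not pass. Of the pluripotency genes 4 rose and none fell: *Dppa3* by 3.32 ± 0.174 (7.10 and 5.55 against 78.6 and 65.9 TPM), *Klf2* by 1.13 ± 0.239, *Klf5* by 1.07 ± 0.207 and *Tfap2c* by 1.04 ± 0.192. In the progenitor list *Ddit4* rose by 1.3 ± 0.152 and *Mcam* fell by 1.51 ± 0.101. Of the differentiation genes *Stra8*, a retinoic acid target, fell by 2.27 ± 0.165 and *Dmrtb1* by 1.31 ± 0.230. Under both other scalings *Sdc3*, *Klf2*, *Klf5*, *Tfap2c* and *Pou2f1* kept their direction and dropped below the fold threshold, as did *Ddit4* under median-of-ratios scaling (0.97). The pluripotency list kept 2 calls without WT Aundiff replicate 1 and 1 without PRC1ctrl Win18446 replicate 2, *Sdc3* was at 0.93 without the former and *Pou2f1* at 0.96 without the latter.

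Other cell types moved with this comparison. The 6 spermatid markers summed to 763 and 840 TPM in WT Aundiff and to 135 and 123 TPM in PRC1ctrl after Win18446, and 4 fell. The 6 spermatocyte markers summed to 151 and 133 against 277 and 304 TPM with 2 higher. The 7 Leydig cell markers summed to 22.5 and 45.0 against 428 and 85.4 TPM with 1 higher, and the 9 Sertoli cell markers to 33.3 and 35.1 against 81.7 and 57.1 TPM with 3 higher. The 6 macrophage markers summed to 10.1 and 14.1 against 40.3 and 24.7 TPM with 2 higher, and the 6 peritubular and endothelial markers to 11.1 and 50.3 against 52.5 and 29.8 TPM with 1 higher. Their part in the member differences was not tested.

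**Figure D4:**
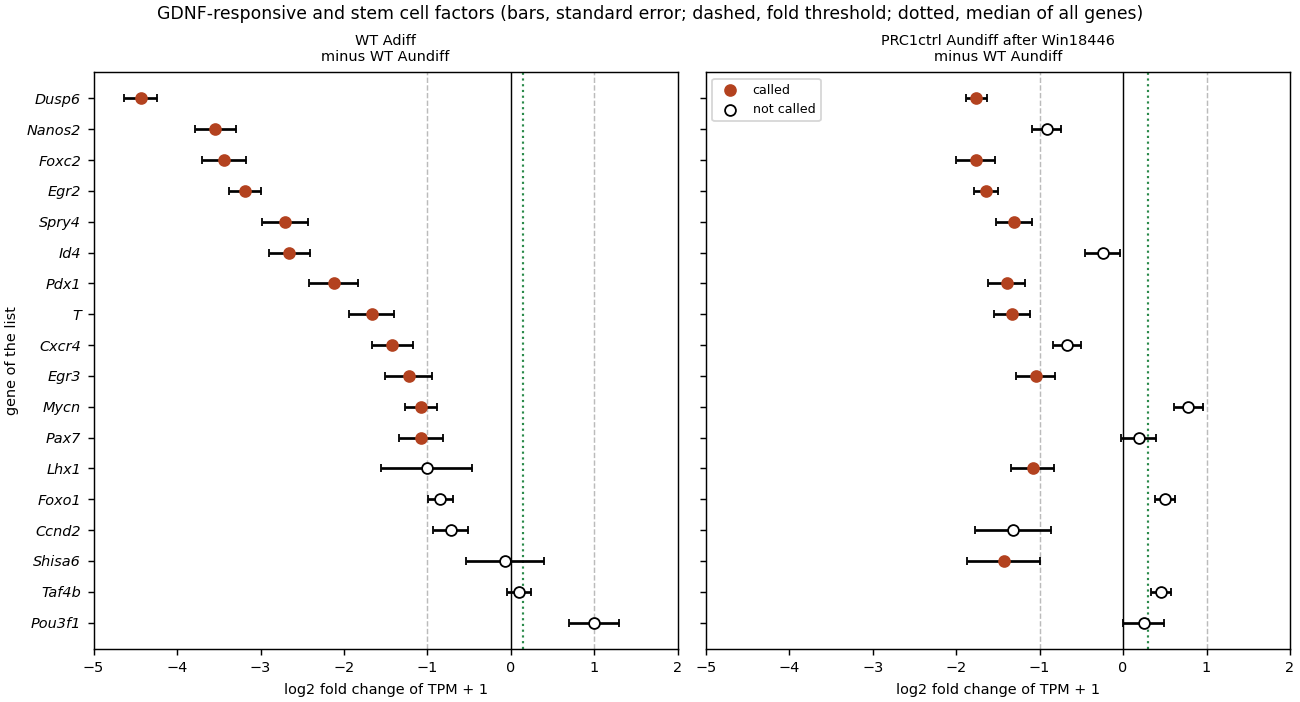
Log2 fold changes of TPM + 1 (points, bars are the standard error from limma) of 18 further GDNF-responsive and stem cell factor genes in WT Adiff minus WT Aundiff (left) and PRC1ctrl Aundiff after Win18446 minus WT Aundiff (right); filled points were called, dashed lines mark the fold threshold and the dotted line is the median of all genes tested. In the left panel 12 points are filled and in the right panel 9, all left of 0.

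The comparison of PRC1cKO with PRC1ctrl Aundiff asks whether loss of PRC1 changes these genes. In untreated mice no member was called by limma, where 1.94% of 13953 genes were called lower and 0.222% higher. Of the members 1, *Sall4*, had an unadjusted p under 0.05 (0.00632), as did 1985 of the 13953 genes. The median standard error of a gene in this comparison was 0.42 log2 units, against 0.17 after Win18446 and 0.22 in WT.

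*Sall4* was at -1.06 ± 0.248 (adjusted p = 0.118). In their own test of read counts, the authors named *Sall4* among the genes lower in untreated PRC1cKO. Here *Sall4* was not called in the main fit to TPM. *Sall4* was called under quantile normalization (-1.14, adjusted p = 0.0424), in a fit over all 12 libraries (adjusted p = 0.0139) and with a GC correction (-1.40, adjusted p = 0.0390), and adjusted p ran from 0.0139 to 0.418 over the alternatives without a replicate term. *Tspan8* was at -0.61 ± 0.349 (adjusted p = 0.513).

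The receptor genes were at 0.45 ± 0.613 (*Gfra1*) and 0.22 ± 0.560 (*Ret*). *Etv5* was at 0.40 ± 0.463, *Bcl6b* at 0.45 ± 0.448 and *Eomes* at -0.29 ± 0.321. *Zbtb16* was at 0.10 ± 0.657, *Pou5f1* at -0.18 ± 0.584 and *Utf1* at 0.68 ± 0.799. The median over all genes was 0.22. Within a group, replicate 2 exceeded replicate 1 in both groups for *Gfra1*, *Ret*, *Etv5*, *Zbtb16*, *Pou5f1* and *Utf1*, and on average by more than the label difference.

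The lists gave few calls here. None of 9 tested ligand and adaptor genes, 13 stem cell factors, 9 pluripotency genes and 7 paralogs passed, and of 16 tested progenitor genes 1 fell, *Nanos3*, an RNA-binding protein gene, by 1.86 ± 0.247 (286 and 349 against 92.4 and 80.6 TPM, adjusted p = 0.0383). It was not called without PRC1cKO replicate 1 (adjusted p = 0.0859) or replicate 2 (0.124). None of the 10 differentiation genes passed, at a median of 1.40 with all 10 positive, but this count was not firm: 6 were called in the fit over all 12 libraries, 2 with the GC correction, 1 under each of the other scalings and 2 without PRC1ctrl replicate 2. The progenitor list had 3 calls in the fit over all 12 libraries, 2 under each other scaling, with the GC correction and without PRC1ctrl replicate 1, and 0 without the filter on low values, with plain moderation or without either PRC1cKO library. Spermatid markers differed with the label, at 751 and 1748 TPM under PRC1ctrl and 64.1 and 57.8 TPM under PRC1cKO, with 4 of 5 tested lower. Of these, *Prm1*, *Prm2* and *Tnp2* were under 1 TPM in both PRC1cKO libraries. They were tested only through PRC1ctrl, so a rise could not have been called for them. Leydig cell markers were at 1.39 and 1.35 against 22.7 and 63.7 TPM, with 1 of 6 tested higher. All Leydig cell markers were under 1 TPM in both PRC1ctrl libraries. Those tested passed the filter on low values only through PRC1cKO, so they could only be called higher. Without a call, spermatocyte markers summed to 563 and 453 against 727 and 646 TPM and macrophage markers to 2.16 and 7.11 against 12.6 and 25.2 TPM. Their part in the member values was not tested.

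After Win18446 the members again gave no call, while 10.9% of 16521 genes were called lower and 1.27% higher, with a median of -0.19. Median-of-ratios scaling brought that median to -0.01 and quantile normalization to 0.04, with calls going from 210 higher and 1807 lower to 325 and 1321 and to 513 and 996. By limma 4 members had an unadjusted p under 0.05, namely *Tspan8*, *Zbtb16*, *Sall4* and *Pou5f1*. Of all 16521 genes tested, 7317 did so, and the share among the members was no higher. *Pou5f1* was lower by an amount that passed the adjusted p and missed the fold threshold, at -0.81 ± 0.116 (adjusted p = 0.00422), and so was *Zbtb16*, at -0.78 ± 0.166 (adjusted p = 0.0146). Of all genes, 26.7% were lower at an adjusted p under 0.05 whatever the fold.

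Scaling and single libraries bore on these 2 genes. *Pou5f1* was at -0.61 under median-of-ratios scaling (adjusted p = 0.0101) and -0.57 under quantile normalization (adjusted p = 0.0141), and passed the adjusted p in all alternatives but the fit over 12 libraries (0.246), with 0.000801 as the lowest. *Zbtb16* was at -0.58 (adjusted p = 0.0307) and -0.73 (adjusted p = 0.0195) under these scalings, and did not pass without PRC1cKO Win18446 replicate 1 (0.0851), without the low-value filter (0.0675) or in the fit over 12 libraries (0.332), with 0.0009 as the lowest over its alternatives.

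*Tspan8* was at -0.46 ± 0.149 (adjusted p = 0.0543), *Sall4* at -0.43 ± 0.166 (adjusted p = 0.0937) and *Bcl6b* at -0.28 ± 0.136 (adjusted p = 0.156). Both PRC1cKO libraries lay below both PRC1ctrl libraries for *Etv5*, *Bcl6b*, *Tspan8*, *Zbtb16*, *Sall4* and *Pou5f1*, 6 of 10 members, against 49.3% of all genes, a share near the background. The receptor genes were at 0.11 ± 0.131 (*Gfra1*) and -0.06 ± 0.126 (*Ret*), and *Gfra1* moved with the scaling, to 0.29 under median-of-ratios (adjusted p = 0.106) and 0.41 under quantile normalization (adjusted p = 0.0458), below the fold threshold in both; its adjusted p ran from 0.0458 to 0.929 over its alternatives. *Etv5* was at -0.18 ± 0.146, *Eomes* at 0.04 ± 0.173 and *Utf1* at -0.16 ± 0.212. For *Ret*, *Etv5*, *Bcl6b* and *Utf1* the sign turned under at least 1 other scaling. The libraries of PRC1ctrl after Win18446 are the same as in the comparison with WT Aundiff.

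Of the lists, no ligand or adaptor gene of 15 tested was called. *Shisa6*, an inhibitor of Wnt signalling, rose by 1.72 ± 0.244 (0.34 and 0.28 against 4.39 and 2.47 TPM) and was the 1 call among 16 stem cell factors. It passed the filter on low values only through PRC1cKO, so it could only be called higher. With either PRC1cKO library left out *Shisa6* was not tested. Of the progenitor genes *Epcam*, a cell adhesion gene, rose by 1.47 ± 0.116 and *Neurog3* fell by 1.11 ± 0.168, below the fold threshold under both other scalings and without PRC1ctrl Win18446 replicate 2 (-0.92). *Dppa5a* rose by 1.25 ± 0.141 among the pluripotency genes, and the paralogs *Sall1* and *Pou2f1* fell by 1.63 ± 0.179 (29.5 and 37.4 against 8.90 and 11.3 TPM) and 1.47 ± 0.183. Of 10 differentiation genes 3 rose: *Dmrtb1* by 1.66 ± 0.235, *Kit* by 1.42 ± 0.159 (6.48 and 8.15 against 20.4 and 22.0 TPM) and *Esx1* by 1.38 ± 0.153. Adjusted p of the genes named from these lists was 0.00176 to 0.00487.

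Spermatid markers summed to 135 and 123 TPM under PRC1ctrl and 25.5 and 23.3 TPM under PRC1cKO after Win18446, with 3 of 5 tested lower. *Prm2* and *Acrv1* were listed at 0 in both PRC1cKO libraries. *Prm1*, *Prm2* and *Tnp2* were under 1 TPM in both PRC1cKO libraries and were tested only through PRC1ctrl. A rise could not have been called for these 3 genes. Leydig cell markers summed to 428 and 85.4 against 84.1 and 23.8 TPM, with none of 6 called, and Sertoli cell markers to 81.7 and 57.1 against 113 and 73.1 TPM, with none of 8 called. Their part in the values of *Pou5f1* and *Zbtb16* was not tested.

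Over both settings, with the setting as a term in limma, no member was called, where 0.229% of 18354 genes were called lower and 0.174% higher (32 higher and 42 lower, against 48 and 24 under median-of-ratios scaling and 65 and 20 under quantile normalization). Here 2 members had an unadjusted p under 0.05: *Sall4*, at -0.74 ± 0.190 (adjusted p = 0.118), and *Tspan8*, at -0.54 ± 0.202 (adjusted p = 0.215). Of all 18354 genes, 3424 did so. The difference of the label effect between settings, which is also a difference between kits, gave no member call, where 4.98% of genes were called lower and 2.76% higher (506 higher and 914 lower, against 827 and 319 and 831 and 488 under these scalings, with the median going from -0.41 to 0.04 and -0.11). No member had an unadjusted p under 0.05 here, where 4541 of the 18354 genes did. *Sall4* was at 0.63 ± 0.325 (adjusted p = 0.284), *Zbtb16* at -0.88 ± 0.752 (adjusted p = 0.505) and *Pou5f1* at -0.63 ± 0.626 (adjusted p = 0.571), so that the lower *Pou5f1* and *Zbtb16* after Win18446 were not shown to differ from the untreated values.

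The untreated Smart-Seq2 and Win18446 TruSeq libraries of the PRC1 mice differed in all members but *Gfra1* and *Eomes* by more than the libraries of the 2 labels did in either setting. Over 4 libraries each, the difference in mean log2(TPM + 1) was -4.30 for *Ret*, -4.01 for *Zbtb16*, -3.55 for *Utf1* and -3.50 for *Pou5f1*. It was -1.81 for *Bcl6b* and -1.14 for *Etv5*, -0.29 for *Gfra1* and -0.13 for *Eomes*, both smaller in size than the untreated label difference, and 1.75 for *Tspan8* and 1.79 for *Sall4*. The receptor genes thus parted, *Ret* being far lower and *Gfra1* nearly level. Over 19179 genes the median difference was -0.68, and when genes were split evenly into 5 classes by the GC content of their longest transcript it went from 0.32 in the lowest class to -1.82 in the highest. *Tspan8* has a GC content of 41.6% and *Utf1* of 63.5%, while *Sall4* (53.8%) and *Zbtb16* (53.6%) have almost the same and lie at opposite ends. Treatment, kit and cell number cannot be told apart in these values, and no test was made.

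**Figure D5:**
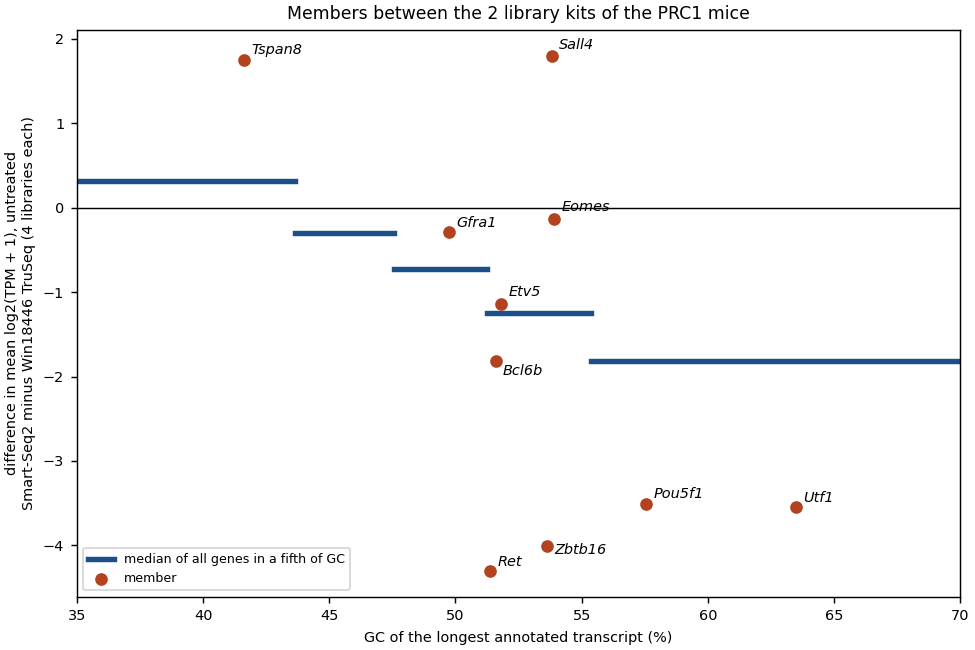
Difference in mean log2(TPM + 1) between the 4 untreated Smart-Seq2 and the 4 Win18446 TruSeq libraries of the PRC1 mice against the GC content of the longest annotated transcript; points are the members and horizontal bars the medians of all genes in 5 classes of GC content (the outer bars run past the axis). The bars step down from 0.32 to -1.82, with Ret, Zbtb16, Pou5f1 and Utf1 farthest below them and Sall4 and Tspan8 farthest above. Bcl6b also lies below its bar, and Gfra1, Eomes and, narrowly, Etv5 lie above theirs.

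Likeness of pattern was measured as the root mean square difference of mean-centred log2(TPM + 1) over the 12 libraries, among 19210 genes with at least 1 TPM in at least 2 libraries. The gene nearest to *Gfra1* was the member *Etv5* (0.41), followed by *Nefm* (0.41), a neurofilament gene, and *Krt17* (0.45), a keratin gene, where the median gene was at 1.42. Nearest to *Ret* were *Matn4* (0.40), *Slc44a2* (0.48) and *Zfp462* (0.48), and nearest to *Zbtb16* were *Bin2* (0.26), *Wsb2* (0.27) and *Got2* (0.28). Nearest to *Pou5f1* were the processed pseudogene *B020017C02Rik* (0.25), *Socs3* (0.30), a feedback inhibitor of cytokine signalling, and *Slc38a7* (0.31). Over the 8 TruSeq libraries alone, the closest pairs of members were *Gfra1* with *Etv5* (0.18), *Zbtb16* with *Pou5f1* (0.22) and *Bcl6b* with *Eomes* (0.36). The libraries share kits and groups, so these values describe the table and were not tested.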

How the data were processed

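RNA-seq of 12 libraries (2 per group, 6 groups) was analysed from the table of TPM that the authors deposited, computed with RSEM (1.3.3 in the submitters' processing notes, which also list Trim Galore 0.6.6, HISAT2 2.2.1, SAMtools 1.9, HTSeq 1.6.0 and DESeq2 1.28.1) on gencode vM24 (GRCm38). The strand setting of RSEM was not given in the sources used here. The authors took their own differential expression from read counts, which were not used here. Members were matched by the gene name in the table, and 54814 of its 55385 identifiers had the same coordinates in gencode vM21, the annotation used here for positions and transcripts. Promoters came from RefSeq.

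TPM keeps no depth, so the precision of a value rests on the 2 libraries of its group. Values were transformed to log2(TPM + 1), which understates the change of low genes, and fitted gene by gene in R 4.3.3 with limma 3.58.1, using trended and robust moderation and two-sided tests, on genes with at least 1 TPM in at least 2 of the libraries compared, with Benjamini-Hochberg adjustment over all genes tested. A call needed an adjusted p below 0.05 and a log2 fold change beyond 1 in size. An exact permutation test of 2 against 2 libraries cannot go below p = 0.333. The procedure was tested on simulated data. Tables and figures were made with Python 3.11.15, pandas 2.3.3, numpy 2.4.6 and matplotlib 3.10.9.

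The members and the lists were chosen with earlier results of these data known. From each list, up to 4 called genes without overlap and with the largest absolute log2 fold change were named per comparison, with genes under 1 TPM in all libraries; for Gfra1, Ret, Zbtb16 and Pou5f1 the 3 nearest genes were named. Prm1, Prm2, Tnp2 and Acrv1 were named after their values were seen. Alternatives were a pseudocount of 0.1, no filter, a mean of at least 5 TPM, median-of-ratios scaling, quantile normalization, leaving out each library, a replicate block, 1 fit to all 12 libraries together, plain moderation (neither trended nor robust), and, chosen after seeing the data, a GC correction.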

Additional observations from a re-analysis of the deposited data

How the results depend on the processing

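Of the counts of called members, 80 stayed within 1.5 times under other settings and 5, all in untreated PRC1cKO minus PRC1ctrl, went up from 0: to 1 (Sall4) under quantile normalization, the fit to all 12 libraries, the GC correction, the replicate block and the block with GC correction. In that comparison the count over all genes, 301, became 0 without the low-value filter, 96 at a mean of at least 5 TPM, 839 under median-of-ratios scaling, 823 under quantile normalization, 1711 in the fit to all 12 libraries, 993 with GC correction and 78 to 168 with 1 library left out. After Win18446 it went from 2017 to 955 at a mean of at least 5 TPM and to between 1189 and 2120 with 1 library left out, and against WT Aundiff from 3254 to 1664 and to between 2020 and 3396; stricter filters test fewer genes. Over both settings it went from 74 to 335 with a pseudocount of 0.1, 0 without the filter, 46 at a mean of at least 5 TPM, 168 with GC correction and 0 to 28 with 1 library left out. For the difference between settings it went from 1420 to 469 with a pseudocount of 0.1, 787 without the filter, 176 at a mean of at least 5 TPM and 21 to 1436 with 1 library left out. Other causes of these changes were not tested.

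Uncalled members near 0 changed sign. In untreated mice Ret was at -0.0033 and Zbtb16 at -0.14 under median-of-ratios scaling, Zbtb16 at -0.052 under quantile normalization, and Ret at -0.049 and Zbtb16 at -0.23 with GC correction, with or without the block. After Win18446, Ret, Etv5 and Utf1 were at 0.13, 0.0045 and 0.031 under median-of-ratios scaling, and Ret, Etv5, Bcl6b and Utf1 at 0.092, 0.12, 0.031 and 0.088 under quantile normalization. Against WT Aundiff, Pou5f1 was at -0.28 and -0.18 under these scalings. With 1 library left out, untreated values ran from -0.22 to 1.11 for Gfra1, -0.36 to 0.79 for Ret, -0.56 to 0.76 for Zbtb16, -0.90 to 0.54 for Pou5f1 and -0.26 to 1.63 for Utf1. After Win18446 they ran from -0.18 to 0.056 for Ret, -0.028 to 0.12 for Eomes and -0.48 to 0.15 for Utf1. Against WT Aundiff they ran from -0.30 to 0.042 for Sall4 and -0.039 to 0.090 for Pou5f1, and for the difference between settings from -1.34 to 0.090 for Pou5f1.

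The sources do not say whether same-numbered libraries were prepared together, so the numbers were not taken as pairs. Their deviations from the group means correlated at 0.158 in WT, 0.381 in untreated and 0.122 in Win18446-treated PRC1 libraries and 0.0746 between WT Aundiff and PRC1ctrl after Win18446, over 2 pairs each. In both untreated groups replicate 2 had more genes at 1 TPM or more (13986 against 12422 under PRC1ctrl, 13826 against 12451 under PRC1cKO) and a lower mitochondrial share (14.8% against 16.7%, 12.5% against 14.4%). With the replicate block, 2172 genes were called in untreated mice (1632 with GC correction) and 7 over both settings, and Sall4 was called in untreated mice (adjusted p = 0.000385, and 0.000821 with GC correction), as were 7 differentiation genes (6 with GC correction) and 3 progenitor genes (4 with GC correction). With 2 libraries a group and no read numbers, the untreated comparison, with the largest standard errors, and members near 1 TPM such as Eomes are the least certain.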
